A study of Mus musculus with 24 samples.

Results

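The genes described here are 10 parts of the bone morphogenetic protein (BMP) pathway in mouse embryonic stem cells: the ligands Bmp4 and Bmp7, the receptors Bmpr1a and Bmpr2, the inhibitors Smad6 and Bambi, and the target genes Id1, Id2, Id3 and Id4. They were taken by symbol, and all 10 were found among the 35022 genes listed for the first experiment and the 48709 listed for the second. RNA was sequenced from E14 cells (strain/genotype 129m wt) that had spent 12 h on soft or stiff StemBond hydrogels, polyacrylamide gels to which fibronectin is tethered, in 2i+LIF. This medium holds the cytokine LIF, 1 µM PD03, which blocks MEK and so the ERK branch, and CHIRON at 3 µM, which blocks GSK3 and so raises Wnt/β-catenin signalling. In the first experiment PD03 was removed, leaving CHIRON and LIF, and in the second CHIRON was removed, leaving PD03 and LIF. Cells were collected 2 h and 12 h later, and the 0 h cells of each experiment stayed in 2i+LIF. None of the groups is labelled as kept in 2i+LIF for a further 2 h or 12 h. Effects of a removal thus cannot be told apart from those of longer time on the gels or of changing the medium. Each experiment had 6 groups of 2 replicates, 12 libraries in each, all from a single wild-type line. The study describes these experiments as done in triplicate, and 2 replicates a group were analysed here. Whether the replicates came from separate cultures is not stated for these libraries, so p-values measure only the spread between these libraries, which may be technical. The study discarded the stiff 2 h replicate 1 of the CHIRON removal, which held 171333 counts, and 23 libraries were used here. That group has 1 library left, taken in the tests to vary like the other groups.

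BMP ligands bind a pair of receptor types on the cell surface, which phosphorylate Smad1, Smad5 and Smad9, and these enter the nucleus with Smad4 to switch on target genes. The Id genes are the best known of these targets; they encode helix-loop-helix proteins that lack a DNA-binding region and hold E proteins away from DNA. In mouse embryonic stem cells BMP4 acting through Id proteins is known to work with LIF against neural differentiation, while ERK signalling favours exit from the naive state.

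Promoter sequence was at hand in RefSeq for 7 of the 10 genes (Bmp4, Bmpr1a, Bmpr2, Smad6, Id2, Id3 and Id4), as windows of 250 bases before to 50 after the start on build GRCm38.p6. Short motifs of 4 kinds were searched on both strands. GGCGCC is a GC-rich sequence that BMP-responsive Smads can bind, and CAGAC is the Smad box. CTTTGAT is the sequence of TCF/LEF factors, which carry the β-catenin signal, and CCGGAAG that of ETS factors, many of which ERK acts on. None of these motifs overlaps another in the windows of the members. GGCGCC was found in 4 of the 7 windows, first base 231 bases before the start in Id2, 198 in Bmpr1a, 148 in Id4 and 105 in Bmpr2, against 11.9% of all 32851 promoter windows. CAGAC was found in Id3 alone, at 167 and 68 bases before the start, against 49.6% of all windows, and CCGGAAG in Bmp4 alone, at 96 bases, against 8.86%. CTTTGAT was in none of the 7 and in 3.73% of all windows. A match is a description of these letters and not a bound site. Windows are shown for Bmp4 and Id3, a ligand and a target that rose after PD03 removal and fell after CHIRON removal on both substrates. The window of Id4, which fell 12 h after PD03 removal, is shown too. The capitals mark the match. The Bmp4 stretch, chr14:46390670-46390919 on the minus strand, is the 250 bases before the start, holds no annotated exon and shows CCGGAAG as its reverse complement. The Id4 stretch, chr13:48260866-48261115 on the plus strand, is likewise the 250 bases before the start, lies in introns of antisense transcripts and shows GGCGCC. Both Id3 stretches, chr4:136143643-136143672 and chr4:136143742-136143771 on the plus strand, are 30 bases within an annotated 5′ UTR of Id3. The first shows CAGAC and the second its reverse complement.
Bmp4: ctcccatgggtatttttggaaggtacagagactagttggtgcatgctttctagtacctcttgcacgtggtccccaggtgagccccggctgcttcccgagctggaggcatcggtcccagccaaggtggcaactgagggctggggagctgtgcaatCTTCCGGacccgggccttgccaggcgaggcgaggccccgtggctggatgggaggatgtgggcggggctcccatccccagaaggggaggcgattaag
Id4: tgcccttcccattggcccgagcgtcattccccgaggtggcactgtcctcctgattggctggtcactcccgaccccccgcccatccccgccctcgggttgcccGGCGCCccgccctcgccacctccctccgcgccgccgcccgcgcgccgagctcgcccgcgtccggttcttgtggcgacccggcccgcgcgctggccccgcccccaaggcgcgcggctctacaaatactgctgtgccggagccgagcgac
Id3, first: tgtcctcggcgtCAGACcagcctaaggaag
Id3, second: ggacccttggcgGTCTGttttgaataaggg

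Deposited gene counts summed to 16222196 to 26442153 a library after PD03 removal and 19393787 to 31111260 in the 11 libraries of the CHIRON removal. Levels are CPM, counts per 1000000 counts in protein-coding genes, after TMM scaling. The test is the quasi-likelihood test of edgeR, adjusted by Benjamini and Hochberg's method over the 13422 and 14615 protein-coding genes that passed a low-count filter. Log2 fold changes are given ± SE, and "rose", "fell" and "changed" mean an adjusted p under 0.05. All 10 members passed the filter in both experiments. The 7 markers of naive embryonic stem cells summed to 5599 to 7125 CPM and 4970 to 5470 CPM in the libraries of the 2 experiments. The 7 markers of primitive endoderm summed to 3.35 to 5.91 CPM and 12.0 to 17.6 CPM and the 6 of fibroblasts to 1.65 to 3.17 CPM and 3.90 to 6.78 CPM. The 5 trophoblast markers, of which naive cells also express Tfap2c, summed to 60.2 to 75.6 CPM and 64.4 to 74.7 CPM. After PD03 removal the naive markers summed to 6842 to 6995 CPM at 0 h and 5599 to 5996 CPM at 12 h, with 5 of 7 lower on each substrate. The 4 markers of 2-cell-like cells fell from 90.1 to 100.4 CPM to 54.9 to 60.8 CPM in sum, with 3 of 4 lower on soft and 4 of 4 on stiff gels. After CHIRON removal the naive markers summed to 5196 to 5470 CPM at 0 h and 5158 to 5398 CPM at 12 h, with 2 of 7 higher and 3 lower on soft gels and 4 higher and 3 lower on stiff gels. The 2-cell-like markers summed to 82.2 to 94.8 CPM and 67.3 to 86.9 CPM. The trophoblast markers summed to 63.1 to 68.1 CPM at 0 h and 68.3 to 75.6 CPM at 12 h of the PD03 removal, where of 3 tested 2 were higher on soft gels and 2 higher and 1 lower on stiff gels. In the CHIRON removal they summed to 69.6 to 74.7 CPM and 65.3 to 72.1 CPM, where of 5 tested 1 was lower on soft and 2 on stiff gels. Of the primitive endoderm and fibroblast markers, 1 of 3 of the former was higher on soft and 1 of 3 of the latter on stiff gels 12 h after PD03 removal. Beside these marker counts, 29.4% of all genes changed on soft and 38.4% on stiff gels at 12 h after PD03 removal. After CHIRON removal 17.8% and 16.8% did. Counts for trophoblast, primitive endoderm and fibroblast markers rest on few genes tested. The part of the marker shifts in the changes of the BMP genes at 12 h was not tested, and in bulk RNA fewer cells of a type and less RNA per cell cannot be told apart.

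The 10 genes differed widely in level when counts were divided by exon length. Over the 12 libraries of the PD03 removal the medians were, in CPM per kb, 39.7 for Id3, 28.2 for Bmp4, 21.8 for Bmpr1a and 10.3 for Id1. The remaining 6 genes were below these, with medians of 4.93 for Smad6, 4.42 for Bmp7, 4.14 for Bambi, 4.04 for Id4, 1.70 for Bmpr2 and 1.21 for Id2. In that order the ranges of neighbours overlapped except those of Bmpr1a (20.9 to 23.5 CPM per kb) and Id1 (4.14 to 16.0 CPM per kb). In the CHIRON removal the order of medians was Bmp4 (17.4 CPM per kb), Bmpr1a (12.0), Id3 (5.25), Smad6 (4.01), Bmpr2 (3.62), Bmp7 (3.50), Id4 (3.31), Id1 (2.71), Bambi (2.41) and Id2 (1.63), and the ranges of all neighbours overlapped. Levels also differed between the 2 experiments at 0 h, where both media were 2i+LIF. On soft gels Bmpr1a stood at 142 and 139 CPM in the first and 68.5 and 79.2 CPM in the second. Bmpr2 stood at 28.3 and 26.9 CPM against 59.0 and 63.2 CPM. The experiments were sequenced and counted as separate sets, so this difference cannot be told apart from how each set was made, and changes are taken within an experiment.

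By 2 h after removal of PD03, 3 of the 10 genes had changed, Bmp4, Id1 and Id3, and by 12 h most of the 10 had. At 2 h, 3 of 10 rose on soft gels and 3 of 10 on stiff gels, where 1.96% and 2.73% of all genes tested changed. By 12 h, 7 of 10 had changed on soft gels (4 higher, 3 lower) and 8 of 10 on stiff gels (4 higher, 4 lower), against 29.4% and 38.4% of all genes. Between 2 h and 12 h, 5 changed on soft gels (1 higher, 4 lower) and 6 on stiff gels (1 higher, 5 lower), against 31.4% and 37.5% of all genes. DESeq2 called 5 in place of 7 on soft and 6 in place of 8 on stiff gels at 12 h against 0 h, beside 2939 and 4045 of all 13422 genes. Some of these counts rest on single libraries. That on soft gels at 12 h against 0 h does so through Bambi and Id2. On stiff gels 5 in place of 8 were called at 12 h against 0 h without stiff 0 h replicate 2 or without stiff 12 h replicate 2. From 2 h to 12 h, 3 in place of 6 were called without stiff 12 h replicate 2. On soft gels 3 in place of 5 were called from 2 h to 12 h without soft 12 h replicate 1, soft 2 h replicate 1 or soft 2 h replicate 2. The median log2 fold change of the 10 genes at 12 h against 0 h was 0.06 on soft and 0.00 on stiff gels, beside -0.00 and -0.00 for all genes tested, since members moved both ways.

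By 2 h after removal of CHIRON, Id3 and Id2 had changed, the latter on soft gels. At that time 2 of 10 changed on soft gels, Id3 lower and Id2 higher, and 1 of 10 on stiff gels, Id3 lower, against 0.226% and 0.103% of all genes. At 12 h against 0 h, 5 of 10 had changed on soft gels (2 higher, 3 lower) and 5 on stiff gels (1 higher, 4 lower), against 17.8% and 16.8% of all genes. From 2 h to 12 h, 4 changed on soft gels (1 higher, 3 lower) and 5 on stiff gels (2 higher, 3 lower), against 16.9% and 10.4% of all genes. From 2 h to 12 h on stiff gels 3 in place of 5 were called without stiff 12 h replicate 2. At 2 h on soft gels it was 1 in place of 2 without soft 0 h replicate 1, soft 2 h replicate 1 or soft 2 h replicate 2. The median log2 fold change at 12 h against 0 h was -0.20 on soft and -0.02 on stiff gels, beside -0.01 and -0.01 for all genes.

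**Figure D1:**
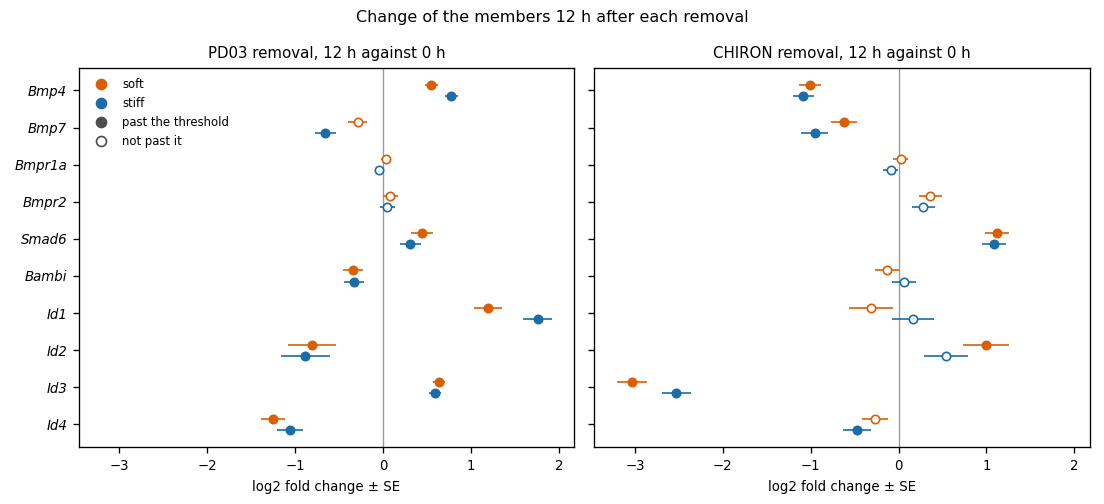
Log2 fold change (x axis, ± SE) of each of the 10 genes (y axis) at 12 h against 0 h after PD03 removal (left) and CHIRON removal (right), on soft (orange) and stiff (blue) gels, from edgeR. Filled points passed an adjusted p of 0.05; Id3 lies at 0.64 and 0.59 on the left and at -3.03 and -2.53 on the right, and Bmpr1a lies near 0 in both.

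Bmp4, the ligand used with LIF to keep mouse embryonic stem cells undifferentiated, rose after PD03 removal and fell after CHIRON removal. On soft gels it stood at 41.3 and 45.0 CPM in 2i+LIF, 63.7 and 72.6 CPM at 2 h without PD03 and 62.9 and 63.3 CPM at 12 h. On stiff gels it stood at 44.4 and 38.5 CPM at 0 h, 73.6 and 69.8 CPM at 2 h and 69.4 and 72.0 CPM at 12 h. The 8 libraries without PD03 thus lay above the 4 at 0 h with no overlap. The log2 fold change at 2 h was 0.66 ± 0.08 (adjusted p = 1.29e-06) on soft and 0.80 ± 0.08 (adjusted p = 1.39e-08) on stiff gels. At 12 h it was 0.55 ± 0.08 (adjusted p = 2.39e-06) and 0.78 ± 0.08 (adjusted p = 3.12e-09). Between 2 h and 12 h it did not pass, with log2 fold changes of -0.11 (adjusted p = 0.277) and -0.02 (adjusted p = 0.845). After CHIRON removal the libraries read 47.2 and 44.9 CPM at 0 h, 46.7 and 34.4 CPM at 2 h and 22.3 and 23.6 CPM at 12 h on soft gels. On stiff gels they read 44.9 and 50.1 CPM at 0 h, 39.2 CPM in the lone 2 h library and 22.1 and 22.7 CPM at 12 h. The 4 libraries at 12 h were the lowest of the 11. The fall was 2.01-fold on soft gels, log2 fold change -1.01 ± 0.12 (adjusted p = 1.27e-05), and a 2.12-fold fall on stiff gels, -1.08 ± 0.12 (adjusted p = 6.16e-06). Bmp4 lies on chromosome 14 (46383520 to 46390669, minus strand) and overlaps the genes Gm15217 and Gm15222 on the other strand. How the counting treated strand is not given in the sources used here, so reads of such partners cannot be told apart from its own.

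Bmp7, a ligand that signals through the same type II receptor, fell late in both experiments. Without PD03 it stood on stiff gels at 18.3 and 18.3 CPM at 0 h, 17.4 and 17.3 CPM at 2 h and 11.5 and 11.7 CPM at 12 h. The log2 fold change at 12 h was -0.66 ± 0.12 (adjusted p = 6.16e-05). On soft gels it stood at 18.1 and 18.8 CPM, 18.4 and 20.6 CPM and 13.5 and 16.5 CPM. The log2 fold change of -0.29 ± 0.11 (adjusted p = 0.0501) missed the threshold, which it passed without soft 12 h replicate 2 (-0.44, adjusted p = 0.0226). Its fall from 2 h to 12 h on soft gels, -0.37 ± 0.11 (adjusted p = 0.0141), was lost without soft 12 h replicate 1 (-0.23, adjusted p = 0.226) or soft 2 h replicate 2 (-0.28, adjusted p = 0.155). The stiff libraries at 12 h lay below every other library of that experiment. Without CHIRON the 12 h levels were 10.2 and 9.73 CPM on soft and 7.85 and 5.86 CPM on stiff gels, below 14.5 and 16.3 CPM and 12.5 and 14.1 CPM at 0 h. The log2 fold changes were -0.62 ± 0.14 (adjusted p = 0.0057) on soft and -0.95 ± 0.16 (adjusted p = 0.000266) on stiff gels. The soft call was lost without soft 0 h replicate 2 (-0.53, adjusted p = 0.0757). At 2 h its levels of 19.0 and 18.0 CPM on soft and 16.4 CPM on stiff gels were the highest of each substrate. The log2 fold changes of 0.26 and 0.30 did not pass (adjusted p = 0.603 and 0.749).

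Bmpr1a, the type I receptor that binds BMP4, did not pass the test in any of the 22 comparisons within an experiment. Its 12 libraries of the PD03 removal ranged over 132 to 149 CPM and the 11 of the CHIRON removal over 68.5 to 83.1 CPM. Without PD03 its log2 fold changes at 12 h were 0.03 ± 0.05 on soft and -0.04 ± 0.05 on stiff gels. Without CHIRON they were 0.02 ± 0.09 and -0.09 ± 0.09. These standard errors were the smallest among the 10 genes in all 4 of those comparisons. Bmpr2, the type II receptor that phosphorylates type I receptors, likewise passed in none of the 22 comparisons. It ranged over 26.9 to 33.2 CPM in the PD03 removal. On soft gels 12 h after CHIRON removal its replicates read 91.2 and 65.1 CPM, against 59.0 and 63.2 CPM at 0 h, so that the groups did not overlap but the replicates stood far apart. The first of them was the deepest library, with 85.3% of its counts in protein-coding genes against 78% in the second. The log2 fold change of 0.36 ± 0.13 (adjusted p = 0.0593) passed without soft 12 h replicate 2 (0.58, adjusted p = 0.00296). On stiff gels 0.28 ± 0.13 (adjusted p = 0.154) passed without stiff 0 h replicate 2 (0.45, adjusted p = 0.0476). From 2 h to 12 h on soft gels its log2 fold change of 0.34 ± 0.13 (adjusted p = 0.0841) also passed without soft 12 h replicate 2 (0.55, adjusted p = 0.00502). On stiff gels without CHIRON Bmpr2 read 61.3 and 75.3 CPM at 0 h, 80.8 CPM in the lone 2 h library and 88.9 and 77.0 CPM at 12 h. With no filter on low counts edgeR called it at 12 h against 0 h on soft (0.37, adjusted p = 0.0016) and stiff gels (0.28, adjusted p = 0.0300). That setting also called it from 2 h to 12 h on soft gels (0.36, adjusted p = 0.00354). Bmpr1a overlaps the antisense gene Gm17110, and Bmpr2 the gene model Gm38125 on its own strand, so reads in the shared stretches could be counted for either gene or left out.

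Smad6, the inhibitory Smad that BMP signalling itself induces, rose by 12 h after either removal. Without PD03 the soft libraries read 12.7 and 12.6 CPM at 0 h, 13.0 and 14.6 CPM at 2 h and 17.5 and 17.0 CPM at 12 h. The stiff libraries read 16.5 and 15.1 CPM, 16.6 and 13.7 CPM and 17.9 and 21.3 CPM. On both substrates the 12 h libraries lay above those at 0 h. The log2 fold changes were 0.44 ± 0.12 (adjusted p = 0.00664) on soft and 0.31 ± 0.12 (adjusted p = 0.0373) on stiff gels. The stiff call was lost without stiff 0 h replicate 2 (0.24, adjusted p = 0.235) or stiff 12 h replicate 2 (0.19, adjusted p = 0.355). Without CHIRON the rise was larger: 8.86 and 11.4 CPM at 0 h, 13.0 and 11.4 CPM at 2 h and 22.3 and 22.0 CPM at 12 h on soft gels. On stiff gels the values were 12.9 and 11.7 CPM, 11.5 CPM and 24.4 and 27.9 CPM. The 4 libraries at 12 h stood well above the other 7. The rise was 2.17-fold on soft gels, log2 fold change 1.12 ± 0.14 (adjusted p = 1.52e-05), and a 2.12-fold rise on stiff gels, 1.09 ± 0.14 (adjusted p = 1.89e-05). At 2 h it passed in neither experiment (adjusted p from 0.625 to 0.943).

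Bambi, a receptor-like protein without a kinase that blocks BMP and TGF-β receptors, fell a little 12 h after PD03 removal. Its soft libraries read 20.6 and 24.1 CPM at 0 h and 17.0 and 18.1 CPM at 12 h, and its stiff libraries 22.1 and 22.7 CPM and 18.8 and 16.7 CPM. The groups did not overlap, and the log2 fold changes were -0.34 ± 0.11 (adjusted p = 0.0196) and -0.33 ± 0.11 (adjusted p = 0.0206). The soft call was lost without soft 0 h replicate 2 (-0.23, adjusted p = 0.254), soft 12 h replicate 1 (-0.30, adjusted p = 0.135) or soft 12 h replicate 2 (-0.39, adjusted p = 0.0502). The stiff call was lost without stiff 0 h replicate 2 (-0.31, adjusted p = 0.102) or stiff 12 h replicate 2 (-0.25, adjusted p = 0.184). After CHIRON removal it stayed within 11.0 to 13.3 CPM and passed in no comparison. Its near-identical pseudogene Bambi-ps1 held 7 to 23 counts in the PD03 removal and 0 to 8 in the CHIRON removal, beside 203 to 463 and 177 to 293 counts of Bambi, and how reads that match both copies were counted is not given in the sources used here.

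**Figure D2:**
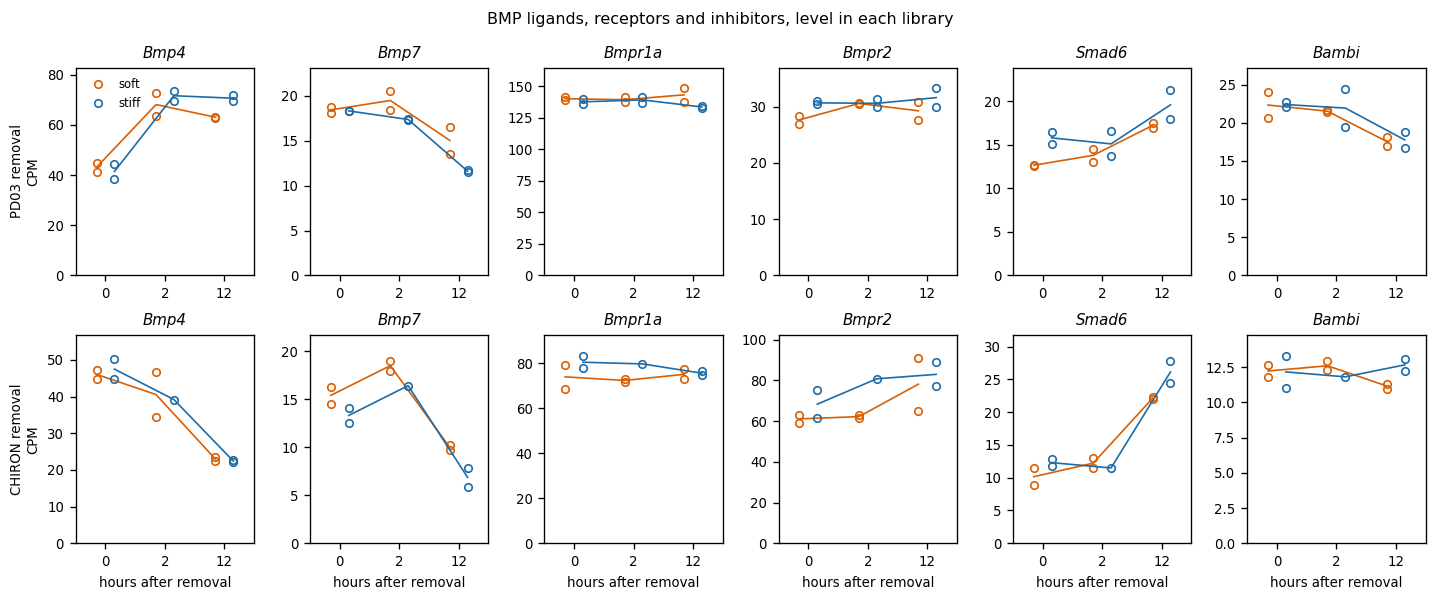
Level in CPM (y axis, from 0) of the 6 ligand, receptor and inhibitor genes at 0, 2 and 12 h (x axis) after PD03 removal (top) and CHIRON removal (bottom) on soft (orange) and stiff (blue) gels; circles are libraries and lines join group means. Bmp4 goes up in the top row and down in the bottom row, and Smad6 is highest at 12 h in both. The receptors stay level apart from Bmpr2 without CHIRON, whose 12 h libraries lie above those at 0 h on each substrate.

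Id1 and Id3 were the members with the largest early rise after PD03 removal. Id1 stood at 5.98 and 5.39 CPM at 0 h, 12.11 and 11.8 CPM at 2 h and 14.3 and 11.8 CPM at 12 h on soft gels. On stiff gels it stood at 5.33 and 4.81 CPM, 12.13 and 16.2 CPM and 18.6 and 15.4 CPM. No library without PD03 overlapped with those at 0 h. The rise at 2 h was 2.103-fold on soft and 2.80-fold on stiff gels, log2 fold change 1.07 ± 0.17 (adjusted p = 0.000133) and 1.49 ± 0.16 (adjusted p = 2.15e-07). It was still up at 12 h, by 2.29-fold on soft gels, log2 fold change 1.20 ± 0.16 (adjusted p = 1.72e-06), and by 3.38-fold on stiff gels, 1.76 ± 0.16 (adjusted p = 7.31e-10). From 2 h to 12 h its log2 fold change of 0.27 ± 0.14 (adjusted p = 0.136) on stiff gels passed only without stiff 2 h replicate 2 (0.49, adjusted p = 0.0255). After CHIRON removal Id1 was low, with 43 to 79 counts a library, and did not pass against 0 h on either substrate. It stood at 1.99 CPM in the lone stiff 2 h library and at 3.95 and 4.21 CPM at 12 h. The log2 fold change from 2 h to 12 h was 1.03 ± 0.32 (adjusted p = 0.0448), a call that was lost without stiff 12 h replicate 1 (1.08, adjusted p = 0.099) or stiff 12 h replicate 2 (0.99, adjusted p = 0.147).

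Id3, the Id gene with the highest median per kb in both experiments, had the clearest opposite course. Without PD03 it went from 42.7 and 43.9 CPM at 0 h to 94.6 and 102 CPM at 2 h and came back to 68.8 and 66.1 CPM at 12 h on soft gels. On stiff gels it went from 47.8 and 50.7 CPM to 117 and 106 CPM and back to 73.4 and 74.8 CPM. The 3 times did not overlap on either substrate, with a peak at 2 h and a partial return. The rise at 2 h was 2.27-fold on soft and 2.26-fold on stiff gels, log2 fold change 1.19 ± 0.07 (adjusted p = 2.22e-13) and 1.18 ± 0.06 (adjusted p = 8.34e-14). At 12 h it was still above 0 h, by 0.64 ± 0.07 (adjusted p = 3.16e-08) and 0.59 ± 0.07 (adjusted p = 6.02e-08) on the log2 scale. Against 2 h it was lower, by -0.55 ± 0.06 (adjusted p = 1.71e-07) and -0.59 ± 0.06 (adjusted p = 2.02e-08). Without CHIRON it went from 28.2 and 28.9 CPM at 0 h to 11.1 and 7.72 CPM at 2 h and 3.22 and 3.84 CPM at 12 h on soft gels. On stiff gels it went from 30.4 and 26.4 CPM to 9.40 CPM and then 5.18 and 4.64 CPM. The fall was 3.05-fold on soft and 3.02-fold on stiff gels at 2 h, log2 fold change -1.61 ± 0.15 (adjusted p = 2.99e-05) and -1.59 ± 0.19 (adjusted p = 0.00151). It was 8.19-fold and 5.78-fold at 12 h, log2 fold change -3.03 ± 0.17 (adjusted p = 1.30e-09) and -2.53 ± 0.17 (adjusted p = 8.90e-09). These were the largest falls among the 10 genes in that experiment. From 2 h to 12 h it fell further, by -1.43 ± 0.19 (adjusted p = 3.77e-05) and -0.94 ± 0.21 (adjusted p = 0.00702). The stiff call was lost without stiff 12 h replicate 2 (-0.86, adjusted p = 0.0632). Id3 lies on chromosome 4 (136143497 to 136145755, plus strand), and its window holds the 2 CAGAC matches printed above.

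On soft gels Id2 had changed in the opposite direction to Id3 by 12 h in both experiments, at a low level of 19 to 67 counts a library in the first and 27 to 158 in the second. Without PD03 it stood at 2.59 and 3.55 CPM at 0 h and 1.79 and 1.69 CPM at 12 h on soft gels, and at 3.25 and 3.29 CPM and 1.94 and 1.57 CPM on stiff gels. The 12 h libraries lay below those at 0 h with no overlap, by -0.81 ± 0.27 (adjusted p = 0.0262) and -0.89 ± 0.28 (adjusted p = 0.0122) on the log2 scale. At 2 h it did not pass. The soft call was lost without soft 0 h replicate 2 (-0.57, adjusted p = 0.246), soft 12 h replicate 1 (-0.85, adjusted p = 0.089) or soft 12 h replicate 2 (-0.77, adjusted p = 0.124). The stiff call was lost without stiff 0 h replicate 2 (-0.88, adjusted p = 0.0562) or stiff 12 h replicate 2 (-0.75, adjusted p = 0.105). Without CHIRON it stood at 1.33 and 2.47 CPM at 0 h, 5.54 and 5.79 CPM at 2 h and 3.97 and 3.65 CPM at 12 h on soft gels. Its values on stiff gels were 3.09 and 2.88 CPM, 7.32 CPM and 4.26 and 4.42 CPM. The 2 h libraries were the highest on each substrate. The log2 fold change at 2 h was 1.56 ± 0.26 (adjusted p = 0.0099) on soft and 1.29 ± 0.28 (adjusted p = 0.131) on stiff gels. At 12 h it was 0.99 ± 0.26 (adjusted p = 0.0142) and 0.54 ± 0.25 (adjusted p = 0.169). Its 0 h replicates on soft gels differed from each other. Without replicate 1 of that group the log2 fold change at 2 h was 1.21, adjusted p = 0.284, and at 12 h 0.66, adjusted p = 0.161. The 2 h call was also lost without soft 2 h replicate 1 (1.59, adjusted p = 0.0693) or soft 2 h replicate 2 (1.52, adjusted p = 0.108). The 12 h call was lost without soft 12 h replicate 1 (0.92, adjusted p = 0.0902).

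Id4 fell late after PD03 removal. On soft gels it stood at 17.8 and 17.2 CPM at 0 h, 16.5 and 15.3 CPM at 2 h and 8.73 and 5.99 CPM at 12 h. The stiff values were 15.5 and 15.6 CPM, 17.0 and 15.9 CPM and 7.13 and 7.83 CPM. The 4 libraries at 12 h were far below the other 8. The fall against 0 h was 2.38-fold on soft and 2.08-fold on stiff gels, log2 fold change -1.25 ± 0.14 (adjusted p = 6.21e-08) and -1.06 ± 0.14 (adjusted p = 1.11e-06). At 2 h neither substrate passed (adjusted p = 0.741 and 0.844). After CHIRON removal the 12 h libraries read 12.8 and 13.0 CPM on soft and 8.46 and 11.7 CPM on stiff gels, against 16.2 and 14.8 CPM and 12.8 and 15.2 CPM at 0 h. The log2 fold changes were -0.27 ± 0.15 (adjusted p = 0.252) and -0.47 ± 0.16 (adjusted p = 0.0477). The stiff call was lost without stiff 0 h replicate 2 (-0.33, adjusted p = 0.304) or stiff 12 h replicate 1 (-0.26, adjusted p = 0.389). Id4 (chromosome 13, 48261228 to 48266026, plus strand) overlaps the antisense RNAs A330033J07Rik and Gm49291 at its start, so reads of these could be counted with it or left out.

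**Figure D3:**
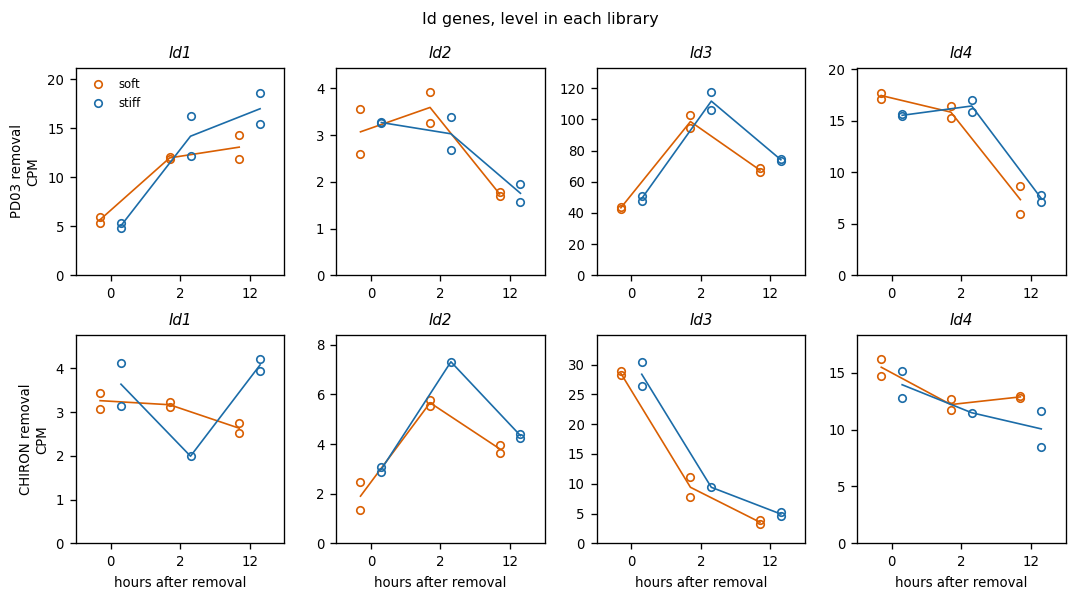
Level in CPM (y axis, from 0) of Id1, Id2, Id3 and Id4 at 0, 2 and 12 h (x axis) after PD03 removal (top) and CHIRON removal (bottom), on soft (orange) and stiff (blue) gels; circles are libraries and lines join group means. Id3 peaks at 2 h in the top row and falls at 2 h and again at 12 h in the bottom row, Id2 is highest at 2 h in the bottom row, and Id4 is lowest at 12 h in the top row.

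Stiffness moved none of the 10 genes past the threshold. In edgeR's test of soft against stiff gels, 0 of 10 passed at 0, 2 and 12 h of the PD03 removal, where 0.0298%, 0.134% and 0.767% of all genes did. At an unadjusted p under 0.05 there were 2, 1 and 4 of the 10, beside 968, 1147 and 1294 of all 13422 genes. DESeq2 called 0 members at each time, beside 2, 14 and 72 of all genes. The 4 at 12 h were Id1, at -0.38 on the log2 scale (soft minus stiff, unadjusted p = 0.0115, adjusted p = 0.288), Bmp7 at 0.38 (unadjusted p = 0.00538, adjusted p = 0.203), Bmp4 at -0.16 and Id3 at -0.14 (adjusted p = 0.459 and 0.517). In the CHIRON removal 0 of 10 passed at 0, 2 or 12 h, and 0% of all genes did at each time by edgeR and by DESeq2, with 508, 838 and 471 genes at an unadjusted p under 0.05. Of the members 1, 1 and 4 were at an unadjusted p under 0.05, the 4 at 12 h being Bmp7 (0.54 on the log2 scale, soft minus stiff), Id1 (-0.64), Id3 (-0.50) and Id4 (0.36), each with an adjusted p of 0.999.

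The response to a removal was also compared between the substrates. After PD03 removal 0 of 10 members passed at 2 h and at 12 h in edgeR and in DESeq2, beside 0.00745% and 0% of all genes in edgeR, with 0 and 3 members and 605 and 899 genes at an unadjusted p under 0.05. The 3 members were Id1, whose change at 12 h was lower on soft by -0.56 ± 0.23 (SE) on the log2 scale, Bmp4 (-0.23 ± 0.11) and Bmp7 (0.37 ± 0.16), with adjusted p of 0.661, 0.735 and 0.698. After CHIRON removal 0 of 10 members and 0% of all genes passed at 2 h and at 12 h by edgeR and by DESeq2, with 0 members and 452 and 415 genes at an unadjusted p under 0.05. Standard errors of the difference of responses over the members ran from 0.07 to 0.40 at 12 h after PD03 removal and from 0.12 to 0.37 after CHIRON removal, and the largest were those of the low gene Id2.

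The changes after the 2 removals were then compared with each other, in a fit of both experiments (23 libraries, 12 groups, 14741 genes) chosen after the values above had been seen. The fit tests the change against 0 h without PD03 minus the change against 0 h without CHIRON. At 2 h, 2 of 10 genes differed on soft gels and 3 of 10 on stiff gels, where 0.821% and 0.78% of all genes did. At 12 h, 6 of 10 differed on soft gels (3 higher and 3 lower without PD03) and 5 of 10 on stiff gels (3 higher, 2 lower), where 21% and 23.5% of all genes did. Id3 had the largest difference, 2.80 ± 0.15 (adjusted p = 6.07e-13) on soft and 2.78 ± 0.17 (adjusted p = 1.91e-11) on stiff gels at 2 h on the log2 scale. At 12 h it was 3.67 ± 0.17 (adjusted p = 2.90e-15) and 3.12 ± 0.16 (adjusted p = 4.26e-14). Bmp4 differed by 0.85 ± 0.15 (adjusted p = 0.00159) and 1.08 ± 0.16 (adjusted p = 0.000318) at 2 h. At 12 h it differed by 1.55 ± 0.15 (adjusted p = 9.61e-09) and 1.86 ± 0.15 (adjusted p = 3.93e-10). Thus the ligand and the target had both gone up relative to 0 h in one medium and down in the other within 12 h. Id1 differed by 1.51 ± 0.28 (adjusted p = 0.000194) and 1.59 ± 0.27 (adjusted p = 6.32e-05) at 12 h. At 2 h Id1 passed on stiff gels, 2.36 ± 0.32. The CHIRON side of that value is the lone stiff 2 h library, at 1.99 CPM the lowest of the 11. On soft gels Id1 missed in edgeR, 1.11 ± 0.28 (adjusted p = 0.0519). There it passed with DESeq2 (1.137, adjusted p = 0.046) and with DESeq2 size factors in edgeR (1.135, adjusted p = 0.045). It also passed there in edgeR with no filter on low counts (1.118, adjusted p = 0.0158). Id2 differed in the opposite direction at 12 h, by -1.80 ± 0.37 (adjusted p = 0.000767) and -1.42 ± 0.37 (adjusted p = 0.00507). It missed the threshold at 2 h (-1.32 and -1.40, adjusted p = 0.0731 and 0.0637). Smad6, which rose in both media, rose less without PD03, by -0.68 ± 0.19 (adjusted p = 0.0101) and -0.78 ± 0.18 (adjusted p = 0.00252) at 12 h. The soft call was lost without soft 0 h replicate 1 of the CHIRON removal (-0.50, adjusted p = 0.0837). Id4 differed on soft gels, -0.99 ± 0.21 (adjusted p = 0.00121), and missed on stiff gels, -0.58 ± 0.22 (adjusted p = 0.0573). On stiff gels it passed without stiff 0 h replicate 2 (-0.71, adjusted p = 0.0328) or stiff 12 h replicate 1 of the CHIRON removal (-0.79, adjusted p = 0.0138). Bmpr1a, Bmpr2, Bmp7 and Bambi differed in none of the 4 comparisons, with Bmpr1a between 0.00 and 0.05. Bmpr2 passed on soft gels at 12 h without soft 12 h replicate 2 of the CHIRON removal (-0.50, adjusted p = 0.0147). Id2 passed on soft gels at 2 h without soft 0 h replicate 2 of the same (-1.82, adjusted p = 0.0163). Replicates spread more in the CHIRON removal, with a biological coefficient of variation of 0.0797 against 0.0386. The fit of both experiments pools these unequal spreads, at 0.0605, and its SE and adjusted p depend on that pooling. Each removal was its own experiment, so the removal and the experiment cannot be told apart.

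**Figure D4:**
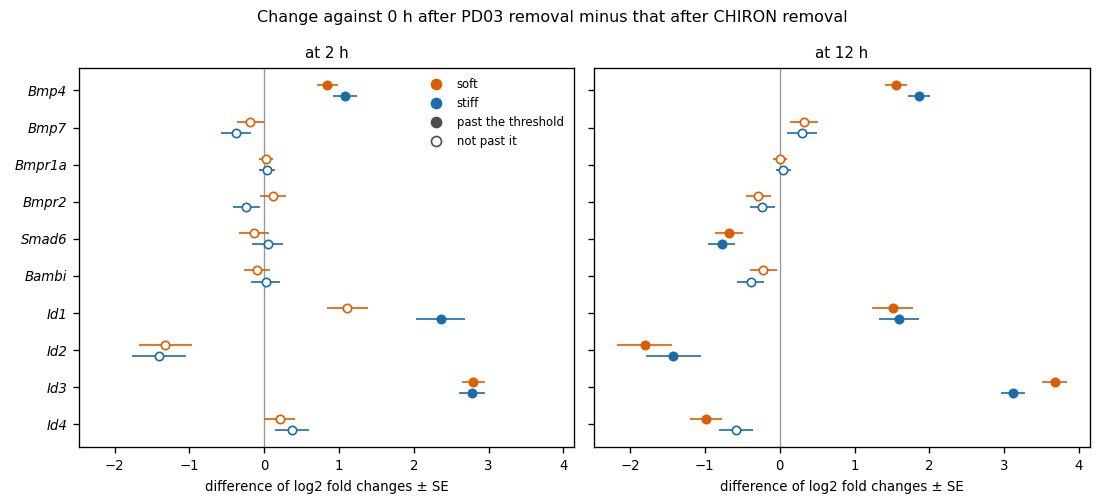
Change against 0 h after PD03 removal minus the change against 0 h after CHIRON removal (x axis, difference of log2 fold changes ± SE) for each gene (y axis), at 2 h (left) and 12 h (right) on soft (orange) and stiff (blue) gels. Filled points passed an adjusted p of 0.05; Id3 lies farthest to the right, between 2.78 and 3.67, and Id2 farthest to the left.

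The rest of the pathway was followed in 7 lists of 63 further genes, of which 43 passed the low-count filter in the first experiment and 50 in the second. At 12 h after PD03 removal 9 of the 43 were higher and 2 lower on soft gels, and 13 higher and 4 lower on stiff gels, with medians of 0.14 and 0.17 on the log2 scale, where 29.4% and 38.4% of all genes changed. At 12 h after CHIRON removal 6 of the 50 were higher and 2 lower on soft gels, and 6 higher and 3 lower on stiff gels, with medians of 0.02 and 0.11, where 17.8% and 16.8% of all genes changed. These counts lie near the shares of all genes and are no result about the lists. Among the 4 signalling Smads the only call at 12 h in either experiment was Smad9 on soft gels after CHIRON removal, a gene named after its values were seen, at 3.25 and 3.04 CPM at 0 h and 1.16 and 0.704 CPM at 12 h (-1.68 ± 0.40 (adjusted p = 0.00658)). Among the intracellular inhibitors 4 of 9 were higher and 1 lower at 12 h on each substrate without PD03. Ctdsp1, a small phosphatase that acts on Smads, and Ski, a corepressor that binds them, rose on stiff gels by 0.50 ± 0.07 (adjusted p = 8.84e-07) and 0.51 ± 0.07 (adjusted p = 1.15e-06). Without CHIRON 3 of 9 were higher on each substrate, namely Tob1 and Skil, which restrain Smads in the nucleus, and Smurf1, a ubiquitin ligase of Smads. On stiff gels they rose by 0.95 ± 0.09 (adjusted p = 8.46e-07), 0.63 ± 0.11 (adjusted p = 0.00071) and 0.43 ± 0.09 (adjusted p = 0.00263). Skil rose on stiff gels without PD03 too, 0.30 ± 0.08 (adjusted p = 0.00562).

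Of the other target genes, 1 of 5 tested was higher 12 h after PD03 removal on each substrate and 2 of 8 after CHIRON removal on each, beside the shares of all genes just given. Dusp9, a MAP kinase phosphatase known as a BMP target in these cells, rose on stiff gels by 0.62 ± 0.06 (adjusted p = 3.37e-09) without PD03 and 0.60 ± 0.10 (adjusted p = 0.000517) without CHIRON. Gata3, which encodes a zinc-finger factor, rose on stiff gels without CHIRON by 1.49 ± 0.18 (adjusted p = 1.31e-05). Of the E proteins that Id proteins bind, Tcf3 and Tcf12 were higher on stiff gels 12 h after PD03 removal, 0.33 ± 0.05 (adjusted p = 1.56e-05) and 0.24 ± 0.08 (adjusted p = 0.0125). Tcf4 was lower on stiff gels 12 h after CHIRON removal, -0.36 ± 0.11 (adjusted p = 0.0298), and did not pass on soft gels (adjusted p = 0.06). Among receptors and co-receptors on stiff gels 2 of 9 were higher and 2 lower without PD03. The co-receptor gene Eng rose by 0.51 ± 0.07 (adjusted p = 7.07e-07) and Hfe2 by 2.17 ± 0.60 (adjusted p = 0.00473) on levels of at most 1.40 CPM. Tgfbr3, the co-receptor betaglycan, fell, -0.76 ± 0.10 (adjusted p = 8.03e-07). Tgfbr3 was also the 1 of 8 that changed on stiff gels without CHIRON, -0.60 ± 0.12 (adjusted p = 0.00172). Among the 8 further ligands tested on stiff gels without PD03 2 were higher and 1 lower. They were Bmp8a at 0.68 ± 0.17 (adjusted p = 0.00226), Gdf11 at 0.73 ± 0.27 (adjusted p = 0.0303) and Gdf3 at -0.21 ± 0.05 (adjusted p = 0.00162). Without CHIRON the only call among 11 was Gdf7 on soft gels, also named after its values were seen, 3.79 ± 0.69 (adjusted p = 0.00082). Its level is not given here. The 16 listed ligands together stood at 171 and 162 CPM at 0 h and 177 and 172 CPM at 12 h on soft gels. Of the secreted antagonists Twsg1, which binds BMPs, was higher on stiff gels without PD03, 0.38 ± 0.07 (adjusted p = 0.000153), and without CHIRON, 0.34 ± 0.10 (adjusted p = 0.0241). On soft gels it was higher without PD03, 0.26 ± 0.07 (adjusted p = 0.00655), and did not pass without CHIRON (adjusted p = 0.142). On stiff gels Chrd was higher without PD03, 0.91 ± 0.34 (adjusted p = 0.0341), and Fst lower without CHIRON, -0.41 ± 0.14 (adjusted p = 0.0468). Neither passed on soft gels (adjusted p = 0.222 and 0.082).

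Soft and stiff gels differed in 2 of the 43 pathway genes tested in the PD03 removal, named here after their values were seen. Of all genes 0.0298%, 0.134% and 0.767% differed at 0, 2 and 12 h. In the CHIRON removal 0 of the 50 pathway genes tested passed at 0, 2 or 12 h, beside 0% of all genes. Smad7, an inhibitory Smad like Smad6, was lower on soft gels at 0 h (120 and 119.6 CPM against 148 and 147 CPM), at 2 h (174 and 162 CPM against 226 and 237 CPM) and at 12 h (110.4 and 121 CPM against 148 and 141 CPM). The soft and stiff libraries did not overlap at any of the 3 times. The log2 fold changes, soft minus stiff, were -0.30 ± 0.05 (adjusted p = 0.0434), -0.46 ± 0.05 (adjusted p = 6.25e-06) and -0.32 ± 0.06 (adjusted p = 0.00292). Smad7 also rose 2 h after PD03 removal, by 0.49 ± 0.05 (adjusted p = 4.22e-07) on soft and 0.64 ± 0.05 (adjusted p = 5.37e-10) on stiff gels. At 12 h it stood at -0.05 and -0.03 against 0 h and did not pass. In the CHIRON removal its soft and stiff values at 0 h were 133 and 121 CPM and 141 and 95.7 CPM, which overlapped. Tgfbr3 was higher on soft gels at 12 h after PD03 removal, 0.49 ± 0.11 (adjusted p = 0.0173).

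Across the 12 libraries of the PD03 removal the protein-coding genes whose log2 CPM was most like that of Id1 were Zfp36l1 (Pearson r = 0.979), Spred1 (0.974) and Rbpj (0.973), and those most like Bmp4 were Xbp1 (0.98), B3gnt7 (0.978) and Dusp4 (0.969). Across the 11 libraries of the CHIRON removal they were Dcaf15 (0.873), Gspt2 (0.836) and Cog1 (0.83) for Id1 and Cdt1 (0.99), Spry2 (0.987) and Slc30a2 (0.984) for Bmp4. These are descriptions over libraries that share times and substrates. The genes were picked as the highest among the 13422 and 14615 tested, and how high such a pick would be by chance was not tested. In the CHIRON removal Id1 held only 43 to 79 counts a library. Among the members themselves, Bmp4 and Id1 (r = 0.937), Bmp4 and Id3 (0.885) and Id2 and Id4 (0.886) went most closely together over the 12 libraries of the PD03 removal. Over the 11 of the CHIRON removal Bmp4 went with Id3 (0.912) and against Smad6 (-0.919), and Bmp7 against Smad6 (-0.883). There Bmp4 and Id1 did not go together (r = 0.0002), and Id2 went against Id4 (-0.654).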

How the data were processed

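Gene counts were deposited by the authors in a table for each experiment. Per the submitters' notes and the study's methods, reads were trimmed with Trim Galore, aligned to mm10 with TopHat2 2.1.0 and counted with featureCounts 1.5.0; ribosomal RNA had been depleted, and the strand setting is not given in the sources used here. In the table of the PD03 removal, 23 empty lines and 12 columns of other samples were left out. Symbols were matched to GENCODE M21, which gave coordinates and exon lengths, and protein-coding genes were kept (19319 and 21695). edgeR 4.0.16 (R 4.3.3) was run per experiment with filterByExpr, TMM scaling and 1 term per group, and p-values were adjusted by Benjamini-Hochberg. Alternatives were DESeq2 1.42.0 and its size factors, no filter, all genes, a replicate block, all libraries, and leaving out each library. Within an experiment the comparisons share groups. Low levels carry few counts, which limits the precision for Id1 and Id2. Same-numbered replicates did not deviate together, with correlations from -0.052 to 0.112 over 15 pairs of groups in the PD03 removal and from -0.109 to 0.071 over 10 in the CHIRON removal, so the numbers were not taken to pair libraries. Scripts were tested on simulated counts.

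The members and gene lists were chosen with earlier results of these data known. All 10 members are named; of each pathway list and experiment, up to 3 genes with the smallest adjusted p among those past the threshold at 12 h against 0 h on stiff gels are named, and the 3 genes most correlated with Id1 and with Bmp4. Genes named outside this rule are marked as such.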

Additional observations from a re-analysis of the deposited data

How the results depend on the processing

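No log2 fold change of a member that passed the threshold changed sign under an alternative. Single calls of members were lost in 38 and gained in 9 cases on leaving out 1 library, and lost in 23 and gained in 11 under the other settings without a block. DESeq2 in place of edgeR lost 7 calls at 12 h after PD03 removal (adjusted p from 0.0568 to 0.107), of Bambi and Id2 (soft) and Smad6 and Bambi (stiff) against 0 h, and of Smad6 (soft), Bambi and Id2 (stiff) against 2 h, and after CHIRON removal, on stiff gels, Id4 against 0 h and Id1 against 2 h (adjusted p = 0.071 and 0.0736). The 0 of 10 members called between soft and stiff gels, and for the difference of their responses, held under the alternatives run. Fitting the discarded library with the rest of the CHIRON removal gave 1 called member in place of 2 (soft, 2 h against 0 h), 3 in place of 5 (soft, 12 h against 0 h), 0 in place of 1 (stiff, 2 h against 0 h) and 1 in place of 5 (stiff, 12 h against 2 h), and in the fit of both experiments 1 in place of 2 (soft, 2 h); calls over all genes fell too, as from 2603 to 457 on soft gels at 12 h. With no filter on low counts 2 in place of 1 were called on stiff gels 2 h after CHIRON removal, and 4 in place of 2 between the removals on soft gels at 2 h; over all genes this setting gave 71 in place of 18 calls for soft against stiff 2 h after PD03 removal, and the cause was not tested. Leaving out 1 library gave, after PD03 removal, 3 to 4 called members (soft, 12 h against 2 h), 5 to 8 (stiff, 12 h against 0 h) and 3 to 5 (stiff, 12 h against 2 h), and after CHIRON removal 1 to 2 (soft, 2 h against 0 h) and 3 to 4 (stiff, 12 h against 2 h).

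A replicate block, added although the numbers do not pair the libraries, left each count of called members within 1.5 times its value: 8 on soft gels at 12 h against 0 h after PD03 removal in place of 7, where Bmp7 was gained (adjusted p = 0.0436), with Smad6 from 2 h to 12 h on soft gels lost there (0.0502), and Id4 at 12 h against 0 h and Id1 from 2 h to 12 h on stiff gels lost after CHIRON removal (0.061 and 0.062). Calls over all genes 2 h after CHIRON removal went from 33 to 21 on soft and from 15 to 4 on stiff gels.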
